A study of Mus musculus with 4 samples.

Results

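Small nucleolar RNAs (snoRNAs) and the non-coding genes named for hosting them were examined in ILC87-Ik1-ER cells, of which 4 samples were measured on Affymetrix Gene ST 1.0 arrays. The members were taken by their symbols in the array annotation, as genes whose symbol begins with Snora, Snord, Scarna or Snhg and a number, together with *Gas5*. A probe set had to carry exactly 1 symbol, and the brightest probe set stood for a gene with several. These rules gave 60 genes out of 19938 named on the arrays, namely 31 box C/D snoRNAs, 20 box H/ACA snoRNAs, 3 small Cajal body-specific RNAs (scaRNAs) and 6 host genes (*Gas5*, *Snhg5*, *Snhg11*, *Snhg15*, *Snhg16* and *Snhg17*). All 60 were found by gene number in the RefSeq annotation of the mouse genome, where the small RNAs are 45 to 275 bases long.

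ILC87 is a cell line grown from a thymic tumour of an Ikaros f/f Lck-cre+ mouse, in which the Lck promoter drives Cre in T-lineage cells and Ikaros is lost. The sample labels give the strain as C57BL/6, while the study's methods give animals of this genotype a mixed background of C57Bl/6 and 129Sv. The line was transduced with the MigR1:Ik1-ER retrovirus, which encodes full-length Ikaros-1 joined to the ligand-binding part of the oestrogen receptor, and GFP+ cells were sorted. All 4 samples carry this construct. The 2 4OHT samples had 100 nM 4-hydroxytamoxifen, which sends the fusion protein to the nucleus, for 24 h, and the 2 EtOH samples had the vehicle, ethanol, for the same 24 h. 4OHT-treated cells that lack Ik1-ER are not among these samples, so that an effect of 4OHT itself and one of nuclear Ikaros cannot be told apart. Nothing states that the 2 samples of a treatment came from separate cultures, and the spread behind each p-value is that between these samples, which may be technical only.

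snoRNAs are short nuclear RNAs that guide the chemical modification of other RNAs. Box C/D snoRNAs direct the methylation of ribose in ribosomal RNA by fibrillarin, box H/ACA snoRNAs direct the conversion of uridine to pseudouridine by dyskerin, and scaRNAs do the same for the small nuclear RNAs of the spliceosome. In mammals most of them are cut out of the introns of other genes. Many of these host genes encode ribosomal proteins or other proteins of translation, while *Gas5* and the *Snhg* genes encode no known protein and carry their product in the introns. *Gas5* owes its name, growth arrest-specific, to its accumulation in cells that stop growing, and its spliced transcript is broken down by nonsense-mediated decay in cells that translate actively.

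Host genes of snoRNAs are known for transcripts that begin with a C followed by pyrimidines, a feature that ties their translation to growth. The starts of the 6 host genes were therefore read from RefSeq (build GRCm38.p6) and are shown where they bear on this. Each window below holds 30 bases before and 30 from the annotated start, and capitals mark the unbroken run of C and T from the start itself.
*Gas5*, chr1:161035136-161035195, plus strand: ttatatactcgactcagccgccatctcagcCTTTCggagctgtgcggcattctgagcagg
*Snhg17*, chr2:158361480-158361539, minus strand: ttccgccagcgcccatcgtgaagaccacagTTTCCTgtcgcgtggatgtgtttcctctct
Of 8 annotated starts of the 6 genes, 1 (12.5%), the *Gas5* start above, had a C at the start with a run of at least 5 pyrimidines, against 2.51% of all 32851 promoters of the table. Among 23 starts of genes that contain a measured snoRNA or scaRNA, 3 (13%) had it. A start annotated a few bases away would be missed by this count.

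The letters GGGAA, the core of the DNA sequence that Ikaros is known to bind, were searched on both strands of the 300 bases from 250 before to 50 after each start. They were found at 3 of the 8 host gene starts (37.5%) and at 62.7% of all promoters, so that they are common letters in windows of this length. The study reports the motif AGGAA as enriched among Ikaros peaks of thymocytes, and that motif was not searched here. The stretches with the most matches in *Gas5*, at an upstream start, and in *Snhg16* are shown with the matches in capitals.
*Gas5*, chr1:161034357-161034416, plus strand: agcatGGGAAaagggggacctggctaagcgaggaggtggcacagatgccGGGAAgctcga
*Snhg16*, chr11:116671608-116671667, plus strand: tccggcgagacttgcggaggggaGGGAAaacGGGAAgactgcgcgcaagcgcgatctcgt
A match describes the sequence and is no evidence of binding.

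After 24 h of 4OHT no snoRNA, scaRNA or host gene passed the test. The treatments were compared by a limma fit to all 35556 probe sets, with a Benjamini-Hochberg adjusted p under 0.05 as the rule for a call. By this rule 0 of the 60 genes were called, against 3.16% of all probe sets and 4.23% of all named genes (2.99% lower and 1.23% higher). At an unadjusted p under 0.05 there were 14 members (23.3%), 11 lower and 3 higher, against 20.4% of all genes, of which 11.7% were lower and 8.74% higher. Many genes on the arrays have lower values than the members. Of the 14582 other genes with mean values in the members' range, 25.9% had an unadjusted p under 0.05. By the adjusted rule 591 of these were called lower and 244 higher. The smallest adjusted p of a member was 0.0825. With 2 arrays per treatment the precision is limited, and in RNA of a whole culture fewer cells of a type and less RNA per cell cannot be told apart. When the fit was confined to the 21789 probe sets with 1 symbol, 9 small RNA genes were called (15%), beside 13.5% of the probe sets in that fit. These were 7 lower genes (*Snora21*, *Snord38a*, *Snord42a*, *Snord42b*, *Snord49a*, *Snord52* and *Snord58b*) and 2 higher ones (*Scarna8* and *Snord61*).

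The size of change that could be called differed between members. The smallest t-statistic called on these arrays was 6.59, and a snoRNA or scaRNA gene would have needed a median log2 difference of 0.94 (1.92-fold) at its own standard error to reach it. The corresponding median over all named genes was 0.56 (1.48-fold). Among the small RNAs the difference needed ranged from 0.46 for *Snora2b* to 3.17 for *Snora44*. The 95% intervals were read at the probe set that stands for each gene. Those of 47 of the 54 small RNA genes and of all 6 host genes lay within −1 to 1 (log2 fold change). For these probe sets the intervals leave out a 2-fold difference in either direction, while differences of smaller size were within many of them. The dimmest *Gas5* probe set, which does not stand for the gene, had an interval of −1.91 to −0.11, which holds a 2-fold lower level.

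The host genes showed no common direction, with 3 below and 3 above an equal level and a median log2 fold change of 0.00 (−0.001). *Gas5* had RMA values (log2) of 11.23 and 11.01 with EtOH and of 10.81 and 11.08 with 4OHT, so that the treatments overlapped. Its log2 fold change was −0.18 (standard error 0.14, limma adjusted p = 0.536, n = 2 arrays each). *Gas5* is also read by 3 further probe sets, and these differed from the first in size. In the order of their mean values, the second had 11.09 and 11.18 with EtOH and 11.01 and 10.78 with 4OHT. The third had 9.49 and 9.68 with EtOH and 9.21 and 9.22 with 4OHT. The fourth had 7.98 and 8.11 with EtOH and 7.54 and 6.53 with 4OHT. In each of these 3 both 4OHT arrays lay below both EtOH arrays, and the log2 fold changes of −0.24, −0.37 and −1.01 did not pass the test (limma adjusted p = 0.326, 0.135 and 0.227). The largest of them rests on arrays that differ by 1.01 within the 4OHT treatment, which is as much as the difference between the treatments.

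*Snhg16*, whose introns carry snoRNAs of the Snord1 group, was the lowest of the 6 in fold change. It had values of 8.35 and 8.05 with EtOH and of 7.97 and 7.69 with 4OHT, and both 4OHT arrays lay below both EtOH arrays. The log2 fold change was −0.37 (standard error 0.15, 95% interval −0.77 to 0.02, limma adjusted p = 0.295). *Snhg11* was the highest, with 6.88 and 6.80 with EtOH and 7.11 and 7.07 with 4OHT. Both 4OHT arrays lay above both EtOH arrays, but the values are at or below the array medians of 7.11 to 7.16 and carry no detection call (log2 fold change 0.25, standard error 0.075, limma adjusted p = 0.186). A second *Snhg11* probe set had overlapping arrays, with 6.44 and 6.28 with EtOH and 6.53 and 6.38 with 4OHT (log2 fold change 0.10, limma adjusted p = 0.657). *Snhg15* (log2 fold change 0.12), *Snhg17* (0.07) and *Snhg5* (−0.08) had overlapping arrays, with adjusted p-values of 0.625, 0.874 and 0.713 from limma. *Snhg17* had 9.41 and 9.97 with EtOH and 9.83 and 9.70 with 4OHT, and here the EtOH arrays stood farther apart than the treatments. Its other probe sets also had overlapping arrays, with log2 fold changes of 0.14 and 0.02 (limma adjusted p = 0.674 and 0.909).

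**Figure D1:**
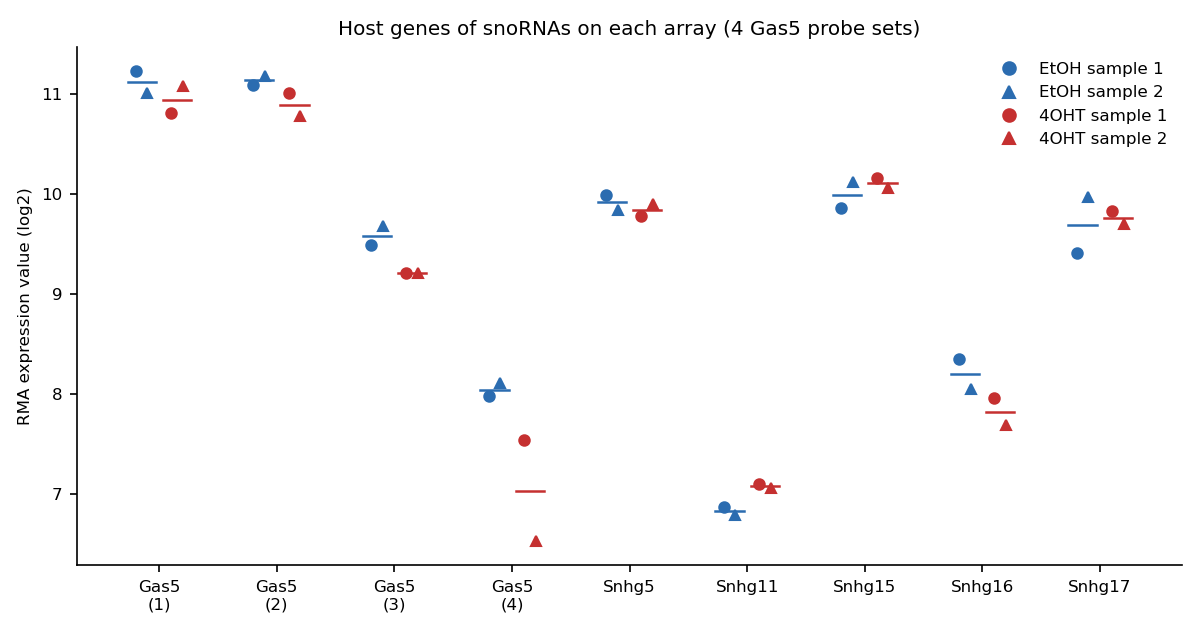
RMA expression values (log2) of the 6 host genes on each of the 4 arrays, with the 4 probe sets of Gas5 numbered by mean value. Blue marks EtOH and red 4OHT, circles sample 1 and triangles sample 2, and short lines the treatment means; the fourth Gas5 probe set has 4OHT arrays at 7.54 and 6.53, while the arrays of Snhg5, Snhg15 and Snhg17 overlap between treatments.

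Among the 54 snoRNA and scaRNA genes 37 had a negative and 17 a positive log2 fold change, with a median of −0.12 and a range of −0.70 to 0.51. Over all named genes the median was 0.03 and 42.3% were negative. Over the 14582 other genes with mean values in the members' range these were 0.02 and 46.4%. Box C/D snoRNAs had a median of −0.20, with 25 of 31 negative, and box H/ACA snoRNAs one of −0.03, with 12 of 20 negative. The 4OHT arrays lay both below the EtOH arrays for 19 of the 54 genes (35.2%, beside 24.5% of all genes) and above them for 5 (9.26%, beside 32.1%). Of the genes in the members' range of mean values, 29.7% lay below and 32.2% above. These shares are descriptions of genes that are not independent of each other.

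The lowest fold changes of the members were those of the box C/D snoRNAs *Snord42a* and *Snord58b*. *Snord42a* had values of 8.68 and 8.47 with EtOH and of 8.18 and 7.56 with 4OHT (log2 fold change −0.70, standard error 0.22, 95% interval −1.29 to −0.11, limma adjusted p = 0.208). *Snord42b* lies in the same gene, *Rpl23a*, and had 10.02 and 10.12 with EtOH and 9.68 and 9.53 with 4OHT (log2 fold change −0.47, standard error 0.091, 95% interval −0.70 to −0.23). Its adjusted p of 0.0825 from limma was the smallest of the 60 genes. For both genes the 4OHT arrays lay below the EtOH arrays without overlap. *Snord58b* had values of 6.69 and 6.41 with EtOH and of 6.19 and 5.60 with 4OHT, below the array medians throughout (log2 fold change −0.66, limma adjusted p = 0.228). *Snord47*, carried in *Gas5*, had 9.66 and 10.06 with EtOH and 9.74 and 8.998 with 4OHT. The first 4OHT array of *Snord47* lay within the EtOH range and the second far below it (log2 fold change −0.50, standard error 0.28, limma adjusted p = 0.427).

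Further box C/D snoRNAs with separate arrays were *Snord49a* (log2 fold change −0.47, limma adjusted p = 0.152), *Snord52* (−0.47, 0.200) and *Snord38a* (−0.46, 0.226). *Snord61*, which lies in *Rbmx*, a gene for an RNA-binding protein on the X chromosome, differed the other way. It had 7.55 and 7.77 with EtOH and 8.20 and 8.01 with 4OHT, with both 4OHT arrays higher (log2 fold change 0.45, standard error 0.12, limma adjusted p = 0.145). The box C/D snoRNAs with the highest mean values, *Snord57* and *Snord49b*, had overlapping arrays. *Snord57*, from an intron of the gene for the box C/D protein Nop56, had 12.39 and 12.26 with EtOH and 12.34 and 12.04 with 4OHT (log2 fold change −0.14, 95% interval −0.48 to 0.20). *Snord118*, also known as U8, is a snoRNA of rRNA processing and the only small RNA member for which the RefSeq annotation gave no containing gene. It had 7.86 and 8.87 with EtOH and 8.03 and 8.10 with 4OHT, so that the EtOH arrays alone differed by 1.01.

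Of the box H/ACA snoRNAs, *Snora21*, carried in *Rpl23*, had the lowest fold change. Its values were 9.41 and 9.88 with EtOH and 9.19 and 9.06 with 4OHT, without overlap (log2 fold change −0.52, standard error 0.17, 95% interval −0.97 to −0.07, limma adjusted p = 0.219). A second probe set for *Snora21* gave −0.55 (limma adjusted p = 0.131), but both carry the same RefSeq record and are not independent readings. *Snora23* had the highest of the class, with 11.34 and 11.58 with EtOH and 11.85 and 11.50 with 4OHT (log2 fold change 0.22, limma adjusted p = 0.516). *Snora52*, the brightest probe set of the members, had 13.15 and 13.43 with EtOH and 13.36 and 13.21 with 4OHT. Its log2 fold change of −0.01 had a 95% interval of −0.33 to 0.32. None of the 20 box H/ACA genes had both 4OHT arrays above both EtOH arrays (beside 32.1% of all genes), and 8 had both below (40%, beside 24.5%). Of the genes in the members' range of mean values, 29.7% had both below. The class median of −0.03 became 0.08 without the second EtOH array and 0.10 without the second 4OHT array. It became −0.16 without the first EtOH array and −0.17 without the first 4OHT array.

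The 3 scaRNAs all had positive log2 fold changes. *Scarna8* had 7.76 and 7.61 with EtOH and 8.29 and 8.10 with 4OHT, a 1.43-fold higher level that did not pass the test (log2 fold change 0.51, standard error 0.11, 95% interval 0.23 to 0.79, limma adjusted p = 0.0914). It was the largest positive fold change among the 60 genes. *Scarna13* had 10.75 and 11.11 with EtOH and 11.30 and 11.11 with 4OHT, where the second array of each treatment had nearly one value (log2 fold change 0.27, limma adjusted p = 0.406). *Scarna17* had 12.10 and 11.99 with EtOH and 12.13 and 12.00 with 4OHT (log2 fold change 0.02, 95% interval −0.21 to 0.26).

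**Figure D2:**
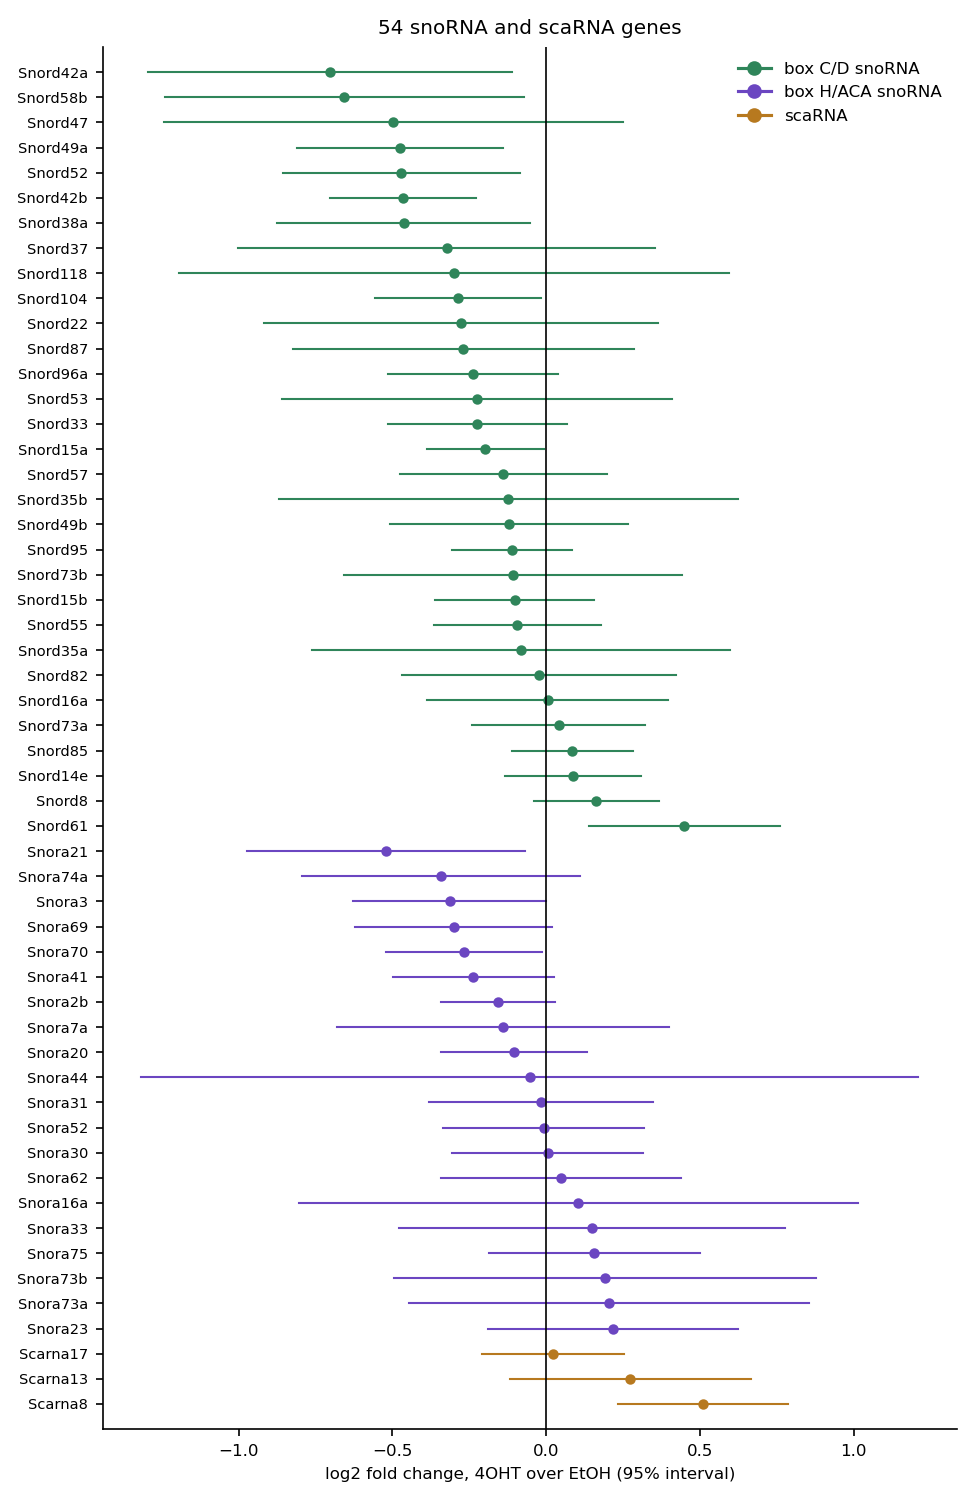
Log2 fold change (4OHT over EtOH) of the 54 snoRNA and scaRNA genes with its 95% interval from limma, sorted within class. Points are genes, coloured by class; 25 of the 31 box C/D genes lie below 0, and the intervals are widest for Snora44 and Snora16a.

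The spread between arrays of one treatment was wider for the small RNAs than for genes at large. The pooled standard deviation within treatments had a median of 0.19 over the 54 snoRNA and scaRNA genes on the log2 scale, against 0.076 over all named genes and 0.077 over the 14582 other genes whose mean values lie in the members' range. The larger of the within-treatment differences exceeded the difference between treatments for 34 of the 54 (63.0%), and for 56.1% of all genes. The arrays also deviated together. Of the 54, 44 had a lower value on the second than on the first 4OHT array (81.5%, beside 41.4% of all genes), with a median difference of −0.20. Among box H/ACA snoRNAs 17 of 20 had a higher value on the second than on the first EtOH array, with a median difference of 0.28, while box C/D snoRNAs were divided, at 16 of 31.

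The direction of the median therefore turned on single arrays. Without the second 4OHT array the median log2 fold change of the 54 genes was 0.04, and without the first it was −0.26. For box C/D snoRNAs the corresponding medians were 0.01 and −0.30, so that the median of this class was near 0 without the second 4OHT array. Of the 60 members, 29 changed sign when some 1 array was left out, among them 15 box C/D and 10 box H/ACA snoRNAs. Without the second 4OHT array alone 14 did so. *Snord35a*, for example, went from −0.08 to 0.29 without it, and *Snora73a* from 0.20 to −0.07 without the first EtOH array. No member was called in any of these 4 fits, and the 2 without an EtOH array called no probe set at all.

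**Figure D3:**
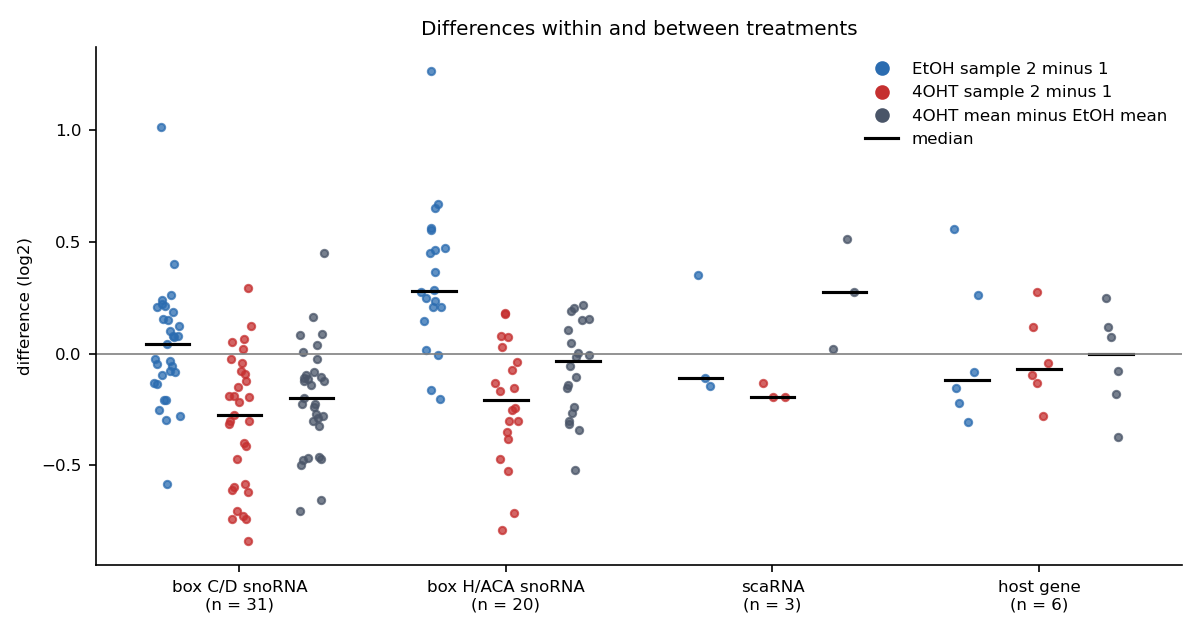
Differences on the log2 scale between the 2 EtOH arrays (blue), between the 2 4OHT arrays (red) and between the treatment means (grey) for each member, by class. Black lines are medians; for box C/D snoRNAs the median between the 4OHT arrays is −0.27 and that between treatments −0.20, and for box H/ACA snoRNAs the EtOH arrays differ by a median of 0.28.

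snoRNAs of one gene often shared this array pattern. *Snora16a* and *Snora44* lie in *Snhg12*. *Snora44* had 8.85 and 10.12 with EtOH and 9.79 and 9.08 with 4OHT, and *Snora16a* had 9.94 and 10.61 with EtOH and 10.77 and 9.98 with 4OHT. In both, the second EtOH and the first 4OHT array were high, while the treatment means differed by −0.05 and 0.10. *Snora73a* and *Snora73b*, 2 copies of the U17 snoRNA of rRNA processing within *Snhg3*, had the same order of arrays (10.33, 10.89, 11.05 and 10.58 for *Snora73a*, in the order of the EtOH and then the 4OHT arrays), with log2 fold changes of 0.20 and 0.19. Signal may be shared between such copies. *Snord35a* of *Rpl13a* and *Snord73b* of *Rps3a1* had low values on the second 4OHT array (9.79 and 9.90), against at least 10.14 and 10.27 on the other arrays. *Snord33* and *Snord73a*, from the same 2 genes, did not have this pattern, with 4OHT arrays at 8.60 and 8.51 and at 6.82 and 6.63.

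The next comparison set each small RNA beside the gene that contains it, to show whether their values differed alike between treatments. A containing gene was found in RefSeq for 53 of the 54, and its own single-symbol probe set was on the arrays for 28 small RNAs in 24 genes. The brightest such probe set stood for the gene. Its position was not compared with that of the small RNA, so that it may not read the same locus. The annotation used gives no strand for the small RNAs, and the shortest gene that spans one was taken. None of the 24 containing genes was called by limma (smallest limma adjusted p = 0.138, for *Wdr43*), and their log2 fold changes lay between −0.29 and 0.17 with a median of −0.08. In 17 of the 28 pairs both members were lower and in 3 both were higher with 4OHT, and in 17 pairs the small RNA had the larger log2 fold change in size. The median size was 0.16 for the small RNAs and 0.11 for the containing genes. Across the 28 pairs, which share arrays and partly genes, Pearson's r was 0.30 and Spearman's rho 0.27, as a description.

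The pairs differed in size. *Rpl23a*, which encodes a protein of the large ribosomal subunit, had a log2 fold change of −0.07, against −0.70 and −0.47 for its *Snord42a* and *Snord42b*. *Haus6*, a gene of the spindle augmin complex that contains *Scarna8*, had one of 0.00 (95% interval −0.22 to 0.22) against 0.51 (0.23 to 0.79). *Ipo7*, which encodes a nuclear import receptor, had −0.24 and its *Snora23* 0.22. The nucleolin gene *Ncl* had −0.16, its box H/ACA *Snora75* 0.16 and its box C/D *Snord82* −0.02. *Gas5* and *Snord47*, both members, had −0.18 and −0.50. The difference within a pair was not tested. For 10 ribosomal protein genes the median log2 fold change was −0.06, and for the 13 small RNAs within them it was −0.11.

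**Figure D4:**
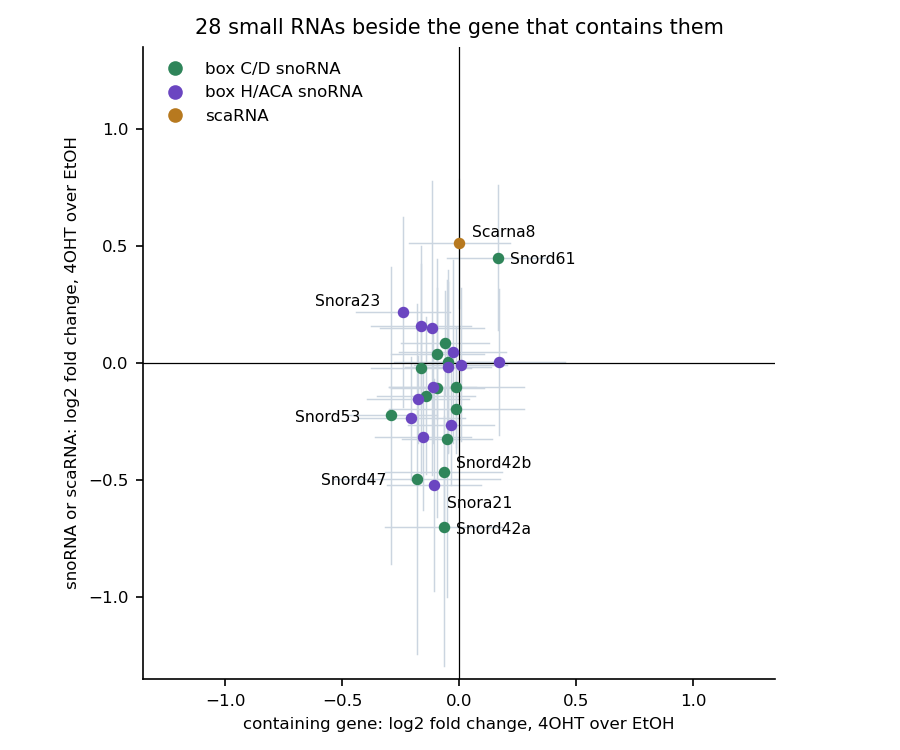
Log2 fold change (4OHT over EtOH) of 28 snoRNAs and scaRNAs on the vertical axis against that of the gene that contains them on the horizontal axis, with 95% intervals in grey. Containing genes lie between −0.29 and 0.17, while the small RNAs spread from −0.70 (Snord42a) to 0.51 (Scarna8).

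Probe sets that name a member together with other genes fell outside the rule. There were 41 of them. The 24 that carry copies of *Snord116*, a brain-expressed imprinted snoRNA cluster, had values of 4.23 to 4.80 on all arrays, far below the array medians, and log2 fold changes of −0.11 to 0.05. None of the 17 others was called (log2 fold changes −0.61 to 0.38, smallest limma adjusted p = 0.0991, 4 with an unadjusted p under 0.05). Of the single-symbol members, *Scarna17*, *Snora30* and *Snord118* had 2 probe sets with the same values on every array, and for *Snora3* they differed by at most 0.0099. Such sets give 1 measurement each.

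The proteins that build and carry snoRNA particles were also without a called gene. Of the 4 core proteins of box C/D particles, *Fbl*, the methyltransferase fibrillarin, had mean values of 11.24 with EtOH and 11.00 with 4OHT (log2 fold change −0.24, limma adjusted p = 0.244), *Nop56* and *Nop58* were at −0.14 and −0.19, and *Snu13* was at 0.04. All 4 core proteins of box H/ACA particles had negative log2 fold changes, among them *Dkc1*, the pseudouridine synthase dyskerin (11.26 with EtOH and 10.95 with 4OHT, log2 fold change −0.31, limma adjusted p = 0.149). Of 16 assembly and trafficking factors, 14 were negative (87.5%, beside 42.3% of all genes) and 11 had both 4OHT arrays below both EtOH arrays (68.8%, beside 24.5%). Of the 14582 other genes in the members' range of mean values, these shares were 46.4% and 29.7%. Lowest among the 16 factors were *Naf1*, an assembly factor of H/ACA particles (log2 fold change −0.70, limma adjusted p = 0.101), and *Znhit6*, one of C/D particles, which had the smallest adjusted p (log2 fold change −0.47, limma adjusted p = 0.0589). With probe sets of mean value under 6 left out, *Znhit6* was called (limma adjusted p = 0.0410), as it was among those with 1 symbol (0.00296). Those fits called 6.10% and 13.5% of their probe sets.

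Genes of RNA polymerase I and rRNA processing had the same sign. Of 24 measured, 23 had a negative log2 fold change (95.8%, beside 42.3% of all genes) with a median of −0.19, and 19 had both 4OHT arrays below both EtOH arrays (beside 24.5% of all genes). None was called, and 10 were lower at an unadjusted p under 0.05 (beside 11.7%). Of the 14582 other genes in the snoRNA members' range of mean values, 46.4% were negative and 29.7% had both 4OHT arrays below. The 24 genes had a median mean value of 10.51, against 8.41 for those genes, and were not matched by level. *Polr1b*, a subunit of the polymerase that makes rRNA, had mean values of 11.03 with EtOH and 10.54 with 4OHT (log2 fold change −0.50, standard error 0.082, limma adjusted p = 0.0603). It was called with a minimum mean log2 value of 6 (limma adjusted p = 0.0417), with an intensity trend (0.0430) and among probe sets with 1 symbol (0.00256). Those fits called 6.10%, 3.45% and 13.5% of their probe sets. Of 36 protein-coding host genes named from general knowledge, 32 were negative (88.9%) with a median of −0.09, and none was called. Among them *Wdr43*, a gene of rRNA processing, had a log2 fold change of −0.29. The lists share genes and are not independent. *Dkc1*, *Nop56* and *Nop58* are also core proteins, and *Ncl* and *Taf1d* are also in the list of polymerase I and rRNA processing. Of 12 measured factors of nonsense-mediated decay, which breaks down *Gas5* transcripts, none was called, 9 were negative and the kinase gene *Smg1* was at 0.34 (limma adjusted p = 0.135). In contrast to the small RNAs, the second 4OHT array was the lower one in 11 of the 24 polymerase I and processing genes and in 5 of the 16 assembly factors.

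Other small RNAs were set beside the snoRNAs, without matching them by length. Of 12 nuclear and cytoplasmic RNAs, such as the RNA of telomerase (*Terc*), of RNase P (*Rpph1*) and the 7SK RNA (*Rn7sk*), none was called, none had an unadjusted p under 0.05, and in all 12 the treatments overlapped. Their median log2 fold change was −0.01, and their median standard error of 0.16 was near that of the snoRNA and scaRNA genes (0.14) and above that of all genes (0.085). Of the 12, *Rnu6*, *Rny1*, *Rnu5g* and *Rnu7* had mean values between 3.93 and 4.97, far below the array medians, where a change may not be seen. *Vaultrc5*, the vault RNA, had the largest difference in size (−0.46), with EtOH arrays at 6.80 and 7.84. The mean values of 291 microRNA genes had a median of 5.92, against 9.02 for the snoRNA and scaRNA genes. Of these microRNA genes, 2 were called, both higher, a smaller share than the 4.23% of all named genes called (1.23% higher). They were *Mir142*, a microRNA of blood cells (log2 fold change 0.61, limma adjusted p = 0.0390), and *Mir687* (1.23, 0.0489). Neither was called when any 1 array was left out.

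**Figure D5:**
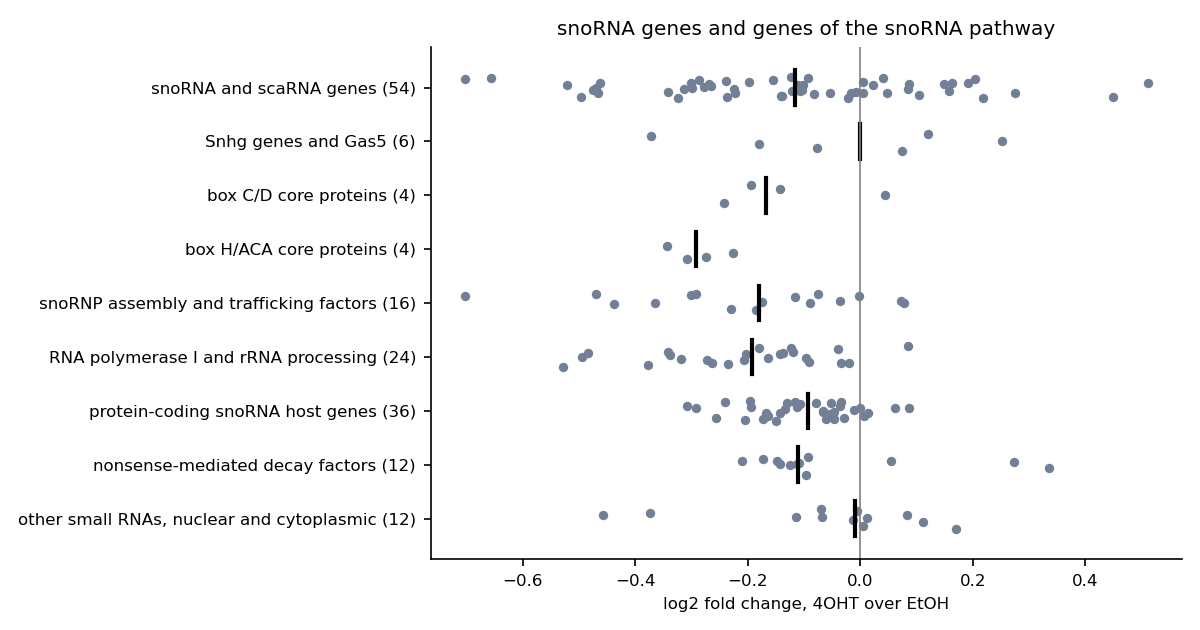
Log2 fold change (4OHT over EtOH) of the snoRNA and scaRNA genes, the Snhg genes with Gas5, and the measured members of 7 pathway lists, with the number of genes in brackets. Points are genes and black lines medians, from −0.29 for the box H/ACA core proteins to 0.00 for the Snhg genes with Gas5.

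As to the arrays themselves, across probe sets the EtOH arrays correlated at r = 0.996 and the 4OHT arrays at r = 0.994. The 9 measured T-lineage markers, among them *Cd3e* and *Thy1*, had mean values of at least 8.75, above the array medians. Of these, *Cd2* (log2 fold change 2.25) and *Cd5* (1.32) were called higher and *Cd3d* (−0.94) lower by limma. The 14 measured markers of B, myeloid, erythroid and natural killer cells had means over the 4 arrays of at most 7.30. The highest mean, that of *Prf1*, lay above the array medians of 7.11 to 7.16. *Prf1* had 4OHT arrays at 7.71 and 7.74 (log2 fold change 0.86, limma adjusted p = 0.0605), and *Itgam* had 7.26 and 7.28 with 4OHT. Values of different probe sets cannot be set against each other and carry no detection calls, so that they do not settle which cells were present. Of the 14, the myeloid genes *Lyz2* (lower) and *Itgam* (higher) were called by limma, and the part of these called markers in the snoRNA values was not tested.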

How the data were processed

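RNA was extracted with a silica column kit, which binds very short RNAs poorly, and labelled by random-primed cDNA synthesis from 150 ng of total RNA, so that a snoRNA probe set may read the mature RNA, its precursor or an unspliced host transcript. The authors deposited log2 values of 35556 probe sets, made with Affymetrix Expression Console 1.1 and RMA per the labels. RMA gives the probe intensities of all arrays 1 distribution before they are summarized to probe sets, and it cannot show a change shared by most genes. The deposited probe set values had array medians of 7.11 to 7.16. For the array annotation, a genome build was not found in the sources. Depth does not apply to arrays, whose number limits the precision.

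Groups came from the sample titles. 4OHT (n = 2) and EtOH (n = 2) were tested two-sided by limma 3.58.1 under R 4.3.3 (lmFit, eBayes, no filter or block), with Benjamini-Hochberg adjustment over all probe sets. The fit had 2 residual and 2.66 prior degrees of freedom, and the script was tested on simulated data. An exact permutation test was not used, since 2 arrays against 2 could not pass a threshold of 0.05. In the annotation, 21789 probe sets have 1 symbol, 1621 several and 12146 none.

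Named were all host genes, the 4 lowest, 4 highest and 4 brightest small RNA genes, and up to 4 called genes of each pathway list, or that with the smallest p. Other genes were named after their values were seen, to illustrate a count or a pair. The members and lists were chosen with earlier results of these data known. Results were recomputed with the sample number as a block, other scalings, a minimum mean value, other sets of probe sets, an intensity trend, a stricter threshold, probe sets averaged per gene and leaving out each array.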

Additional observations from a re-analysis of the deposited data

How the results depend on the processing

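The call of no snoRNA, scaRNA or host gene was the same under each alternative for the host genes, and for the small RNA genes under each but 1. Among probe sets with 1 gene symbol 7 small RNA genes were lower and 2 higher. That fit holds 21789 probe sets and had 8.44 prior degrees of freedom, against 2.66, and it called 1868 probe sets lower and 1070 higher, against 772 and 351. It also called 7 lower genes of polymerase I and rRNA processing, 4 assembly factors, 2 protein-coding hosts and 1 H/ACA core protein, all lower, 1 higher factor of nonsense-mediated decay, and 7 lower and 22 higher microRNAs. With a minimum mean value of 6, 1 gene of polymerase I and rRNA processing and 1 assembly factor were called, beside 6.10% of the probe sets in that fit. With an intensity trend 1 gene of polymerase I and rRNA processing was, beside 3.45% of the probe sets. With the sample number as a replicate block 32 probe sets were lower, 10 higher and 0 microRNAs were called. Neither the labels nor the methods say whether the numbers pair the samples. The deviations of same-numbered arrays had a weak negative correlation (r = −0.13 across probe sets), which with 2 arrays per treatment cannot decide it. A crossed pairing, chosen after seeing the data, called 552 probe sets lower and 226 higher (2.19% of all), 1 assembly factor and 0 microRNAs. At an adjusted p under 0.01, 74 probe sets were lower, 21 higher and 0 microRNAs called, and with probe sets averaged per gene 1 microRNA was. Leaving out 1 array gave 0 to 360 lower and 0 to 94 higher probe sets and 0 microRNAs.

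The median of the 54 small RNA genes ranged from −0.26 to 0.04 when 1 array was left out, and was −0.07 after another quantile normalization and −0.14 with equal array medians. That of the host genes ranged from −0.04 to 0.06 over all alternatives. After another quantile normalization *Snora52* had a log2 fold change of 0.012 instead of −0.0072. Leaving out the first or second EtOH or the first or second 4OHT array turned the sign of 11, 9, 8 and 14 of the 60 members, 29 in all. Of the genes named by the rule these were *Scarna17* (−0.042 to 0.088), *Snhg15* (−0.0095 to 0.25), *Snhg17* (−0.20 to 0.35), *Snhg5* (−0.15 to 0.0013), *Snora52* (−0.15 to 0.13), *Snord49b* (−0.28 to 0.037), *Snord57* (−0.29 to 0.012) and, outside the members, *Vaultrc5* (−0.98 to 0.065), none of which was called. The others were 13 box C/D and 9 box H/ACA snoRNAs, among them *Snord118* (−0.81 to 0.21), *Snora44* (−0.69 to 0.58), *Snora16a* (−0.29 to 0.50), *Snora73a* (−0.07 to 0.48) and *Snord73b* (−0.41 to 0.19). Without detection calls, low values may be background, and the smallest difference that could be called is limited by 2 arrays per treatment. A snoRNA measured with a larger array spread needs a larger difference.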
